A study of Arabidopsis thaliana with 6 samples.

Results

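Transcripts of genes that loosen or acetylate the plant cell wall were compared between rosette leaves of Arabidopsis thaliana line A6 and wild type on Affymetrix ATH1 arrays. A gene was included if the probe annotation gave it a symbol of the XTH, EXPA, EXPB, EXLA, EXLB or TBL series and its probe set paired with 1 gene, and the pectin methylesterase gene ATPMEPCRB (AT4G02330) was added by name. The rule found 50 genes among the 13355 genes measured under a name: 9 XTH genes, 18 expansin genes (10 EXPA, 4 EXPB, 3 EXLA and EXLB1), 22 TBL genes and ATPMEPCRB. Each of the 50 had a single probe set. These are 9 of 33 listed XTH loci, 18 of 34 listed expansin loci and 22 of 46 listed TBL loci, and the others are not analysed here as members.

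A growing plant cell is held by cellulose fibres that are tied together by hemicelluloses and set in pectin. XTH enzymes cut xyloglucan, a hemicellulose, and rejoin the ends, and expansins loosen the contact between cellulose and its partners without cutting either. Pectin methylesterases strip methyl groups from pectin, which changes its charge and stiffness. Proteins of the TBL family, named after TRICHOME BIREFRINGENCE, add acetyl groups to xylan, xyloglucan, mannan or pectin, and these groups affect how the polymers pack and how enzymes reach them.

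Days of 20 h light and 4 h dark at 20 °C were used for both lines, and rosette leaves 3 to 6 were harvested from plants aged 3 weeks. There were 3 A6 and 3 wild-type samples, each on its own array, named here by line and replicate number. The labels call the replicates biological without saying whether plants were pooled or grown together. The p-values therefore rest on the spread among these samples within a line and may not cover independent growths. Line A6 is described as deficient in N6-adenosine methylation and is known to combine a mutation of MTA, the enzyme subunit that methylates mRNA, with an MTA transgene driven by the embryo-active ABI3 promoter, and the controls carry neither the mutation nor the transgene. With a single mutant line, what comes from reduced methylation and what comes from the line itself cannot be told apart, and MTA's own level is not analysed here. The unit throughout is a log2 signal from which the probe set's median over the 6 arrays was subtracted, so 0 is the middle of the 6 arrays and no gene can be called expressed or silent. Differences are given as the A6 mean less the wild-type mean, with a standard error (SE) and limma's Benjamini-Hochberg adjusted p over 22746 probe sets. A gene is said to have risen or fallen only at an adjusted p under 0.05.

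Several controls moved with the arrays. The 3' minus 5' difference of the actin, GAPDH and ubiquitin control probe sets, a sign of RNA quality, lay between -0.033 and -0.021 in A6 and between 0.016 and 0.091 in wild type, so the lines did not overlap. The 25S ribosomal RNA control lay between 0.51 and 0.83 in A6 and between -1.06 and -0.51 in wild type, and its part in the results was not tested. The hybridisation controls, which are added at fixed amounts before hybridisation, stood at 0.41 in A6 array 3 and 0.399 in wild-type array 1 and between -0.37 and 0.019 in the other 4 arrays. The deviations of A6 array 3 and wild-type array 1 from their group means correlated at 0.304 across probe sets. Because each of these arrays belongs to a different line, results are also given with the control level as a block and without this pair of arrays.

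Of the 50 genes, 5 rose in A6, 0 fell and 45 did not pass. The risen genes were ATPMEPCRB, EXLB1, XTH32, XTH16 and EXPA4. Among all 13355 genes 8.65% passed, 4.32% as rises and 4.33% as falls, and 9.77% of all probe sets did. ATPMEPCRB was included with its rise already known, and without it 4 of 49 genes rose. At an unadjusted p under 0.05 with limma 12 of the 50 genes were higher and 3 lower in A6, where the shares among all genes were 10.1% and 11.9%. The median difference of the 50 genes was 0.078, beside a median of -0.027 over all genes. Of the 50 genes 31 were higher and 19 lower in A6, or 62% higher beside 44.3% of all genes. All A6 values lay above all wild-type values for 14 of the 50 genes and below them for 4, against 12% and 14.9% of all genes.

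**Figure D1:**
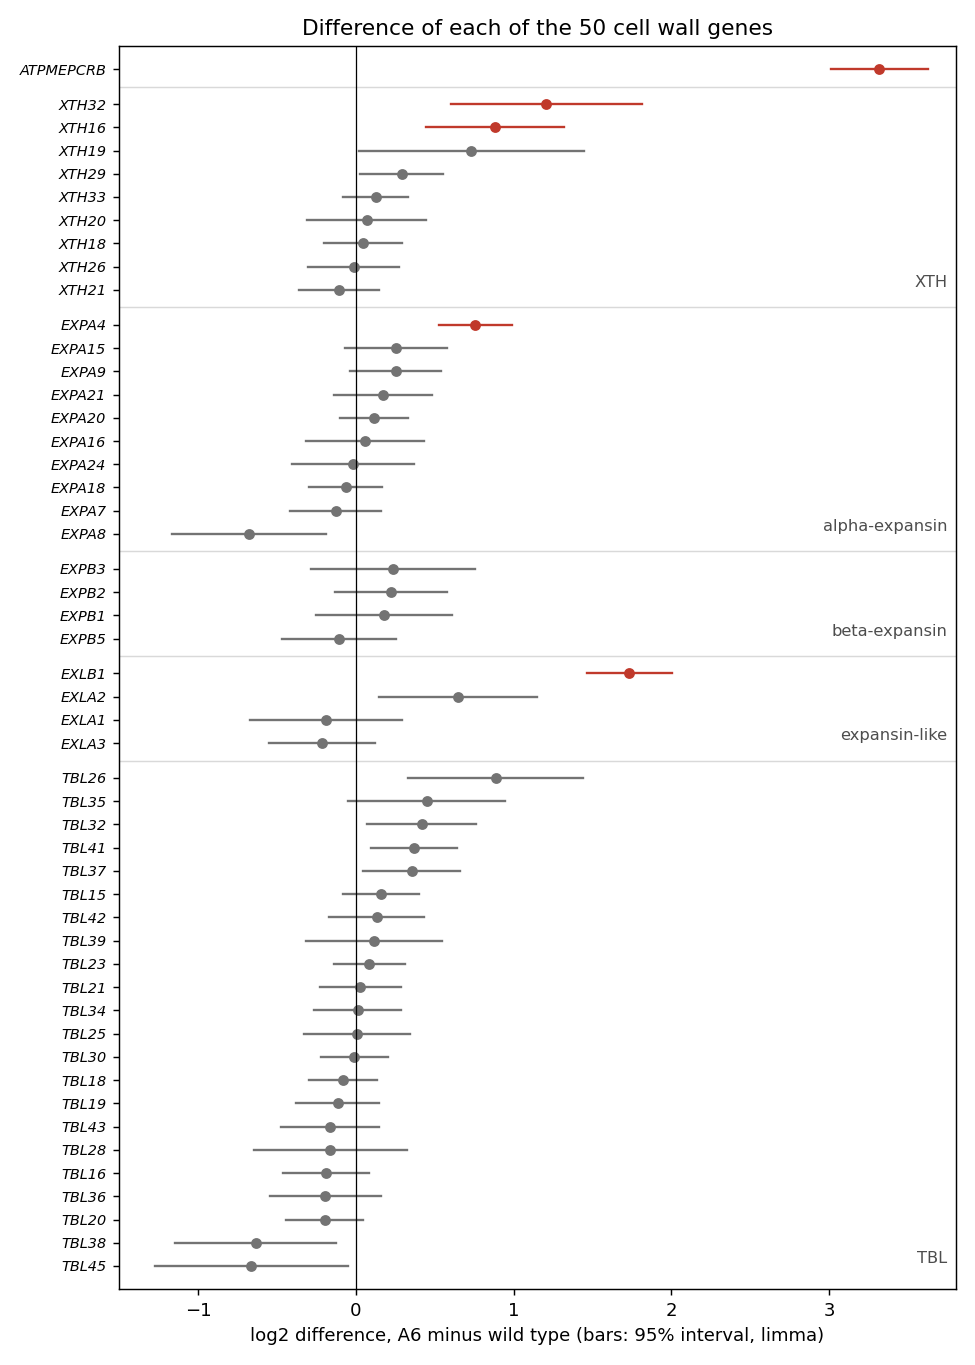
Log2 difference (A6 minus wild type) of the 50 genes, grouped by class with ATPMEPCRB alone at the top, as points with 95% intervals from limma. Red marks the 5 genes with an adjusted p under 0.05, all to the right of 0; TBL26 at 0.89 and EXPA8 at -0.68 are among the grey genes that did not pass.

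The pectin methylesterase gene ATPMEPCRB had the largest difference of the 50 genes. Its centred log2 values were 1.95, 1.67 and 1.51 on A6 arrays 1, 2 and 3, against -1.51, -1.72 and -1.59 on the wild-type arrays. The lines were separated by 3.02 log2 units even between the nearest arrays, and replicates of a line stayed within 0.44 units of each other. The A6 mean was 1.71 ± 0.22 (SD, n = 3). The wild-type mean was -1.61 ± 0.11 (SD, n = 3), so the level differed 9.97-fold (log2 3.32, 95% interval 3.01 to 3.63). It passed in all 14 other fits, with adjusted p-values up to 0.00542.

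Among the 9 XTH genes, XTH32 and XTH16 rose and 0 fell, beside 4.32% and 4.33% of all genes; 0 of the 9 passed without A6 array 1 or without wild-type array 2. A higher mean in A6 was found for 7 of the 9 (class median 0.13), beside 44.3% of all genes. XTH32 (AT2G36870) belongs to the part of the family in which enzymes that hydrolyse xyloglucan are known. It had values of 0.46, 0.27 and 0.402 in A6 and -0.27, -0.76 and -1.46 in wild type. The A6 arrays were close together, whereas the wild-type arrays spread over more than 1 log2 unit with replicate 1 nearest to A6. The difference was 1.21 (SE 0.26, adjusted p = 0.0272), a 2.31-fold rise, and all A6 values were above all wild-type values.

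XTH16 (AT3G23730) had values of 0.42, 0.22 and 0.94 in A6 and -0.22, -0.32 and -0.54 in wild type. Here A6 array 3 was the high array and the lines did not overlap. The difference was 0.88 (SE 0.19, adjusted p = 0.0257), or 1.84-fold. Both XTH calls were close to the threshold. For XTH32 the adjusted p was 0.106, 0.0778 and 0.0789 when A6 array 1, 2 or 3 was left out and 0.0815 when wild-type array 2 was. For XTH16 it was 0.0799 when A6 array 1 was left out, and 0.0796 and 0.0851 when wild-type array 2 or 3 was. Fitted with the 3' minus 5' value of each array as a covariate (the RNA quality covariate), XTH32 differed by 1.85 (adjusted p = 0.0929) and XTH16 by 0.91 (adjusted p = 0.253).

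XTH19 (AT4G30290) had the next largest difference of the class but did not pass. Its values were 0.045, 0.13 and 1.095 in A6 and -0.045, -0.803 and -0.084 in wild type. A single array of each line, A6 array 3 and wild-type array 2, stood far from the rest, and the remaining 4 values lay within 0.21 units of each other. The difference was 0.73 (SE 0.31, adjusted p = 0.193), and leaving out A6 array 3 gave 0.396 (adjusted p = 0.407) and wild-type array 2 gave 0.49 (adjusted p = 0.437).

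XTH18 (AT4G30280) is the direct neighbour of XTH19 on chromosome 4 in the RefSeq gene order, with 0 genes between them, and had a difference of 0.047 (SE 0.11, adjusted p = 0.861). The gap between the 2 neighbours was not tested. XTH29 had 0.29 (SE 0.11, adjusted p = 0.162), with all A6 values above all wild-type values, and 0.042 under the RNA quality covariate (adjusted p = 0.936). The remaining XTH genes, XTH20, XTH21, XTH26 and XTH33, lay between -0.11 and 0.13. XTH26 is known from root hairs and XTH21 from roots.

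Of 18 expansin genes, EXLB1 and EXPA4 rose, 0 fell and 16 did not pass, so that 11.1% passed beside 8.65% of all genes. EXLB1 (AT4G17030) encodes an expansin-like B protein, of a class that shares the expansin fold but for which no wall loosening has been established. Its values were 0.76, 0.94 and 0.75 in A6 and -0.75, -0.95 and -1.05 in wild type. The A6 arrays spanned 0.195 units and the wild-type arrays 0.303, and the lines lay 1.49 units apart at their nearest. This was a 3.32-fold rise (log2 1.73, SE 0.12, adjusted p = 0.000423). EXLB1 passed in all 14 other fits, with differences from 1.67 to 1.99 and adjusted p-values up to 0.0179.

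The 3 EXLA genes did not pass. EXLA2 (AT4G38400) had values of 0.091, -0.013 and 0.44 in A6 and 0.013, -0.73 and -0.71 in wild type. Wild-type replicate 1 lay among the A6 arrays and the other 2 wild-type arrays well below them. The difference was 0.65 (SE 0.22, adjusted p = 0.109). Without wild-type array 1 it was 0.89 (adjusted p = 0.0069), and with the hybridisation control block it was 0.65 (adjusted p = 0.00754). It was 0.52 without wild-type array 2 (adjusted p = 0.282) and 0.51 without A6 array 3 (adjusted p = 0.269). EXLA2 passed in 4 of the 14 other fits. EXLA1 and EXLA3, direct neighbours on chromosome 3, lay between -0.21 and -0.19.

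EXPA4 (AT2G39700), an alpha-expansin of the type that loosens walls at acid pH, rose by a smaller amount with little spread. Its values were 0.31, 0.399 and 0.52 in A6 and -0.41, -0.31 and -0.33 in wild type. The difference was 0.76 (SE 0.101, adjusted p = 0.00441), or 1.69-fold, and the wild-type arrays stayed within 0.102 units of each other. It passed without any 1 array, with adjusted p-values of 0.00479 to 0.023, and the RNA quality covariate left 0.62 (adjusted p = 0.154).

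EXPA8 (AT2G40610) went the other way among alpha-expansins without passing. Its values were -0.31, -0.67 and -0.044 in A6 and 0.73, 0.23 and 0.044 in wild type. The lines did not overlap, but A6 array 3 and wild-type array 3 were only 0.088 units apart. The difference was -0.68 (SE 0.21, adjusted p = 0.0897), and the adjusted p was 0.0117 with the hybridisation control block. Under the RNA quality covariate it was -0.21 (adjusted p = 0.818).

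The other 8 alpha-expansins had differences from -0.13 to 0.26, and 0 of them had an unadjusted p under 0.05 with limma. They include EXPA7 and EXPA18, which are known from root hairs, and EXPA21 and EXPA24 of an expansin cluster on chromosome 5. A pair of further probe sets of that cluster each pair with 2 genes and were left out; these had 0.086 for EXP26 and EXPA22 (adjusted p = 0.745) and -0.13 for EXPA25 and EXPA23 (adjusted p = 0.563). The 4 beta-expansins had differences from -0.11 to 0.23. Among them EXPB3 had 0.23 (SE 0.23, adjusted p = 0.616) and EXPB2 had 0.22 (SE 0.15, adjusted p = 0.451), each with overlap between the lines. Leaving out single arrays moved EXPB3 between 0.019 (without wild-type array 2) and 0.38 (without A6 array 2), and EXPB2 between 0.0698 (without A6 array 3) and 0.37 (without A6 array 2).

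**Figure D2:**
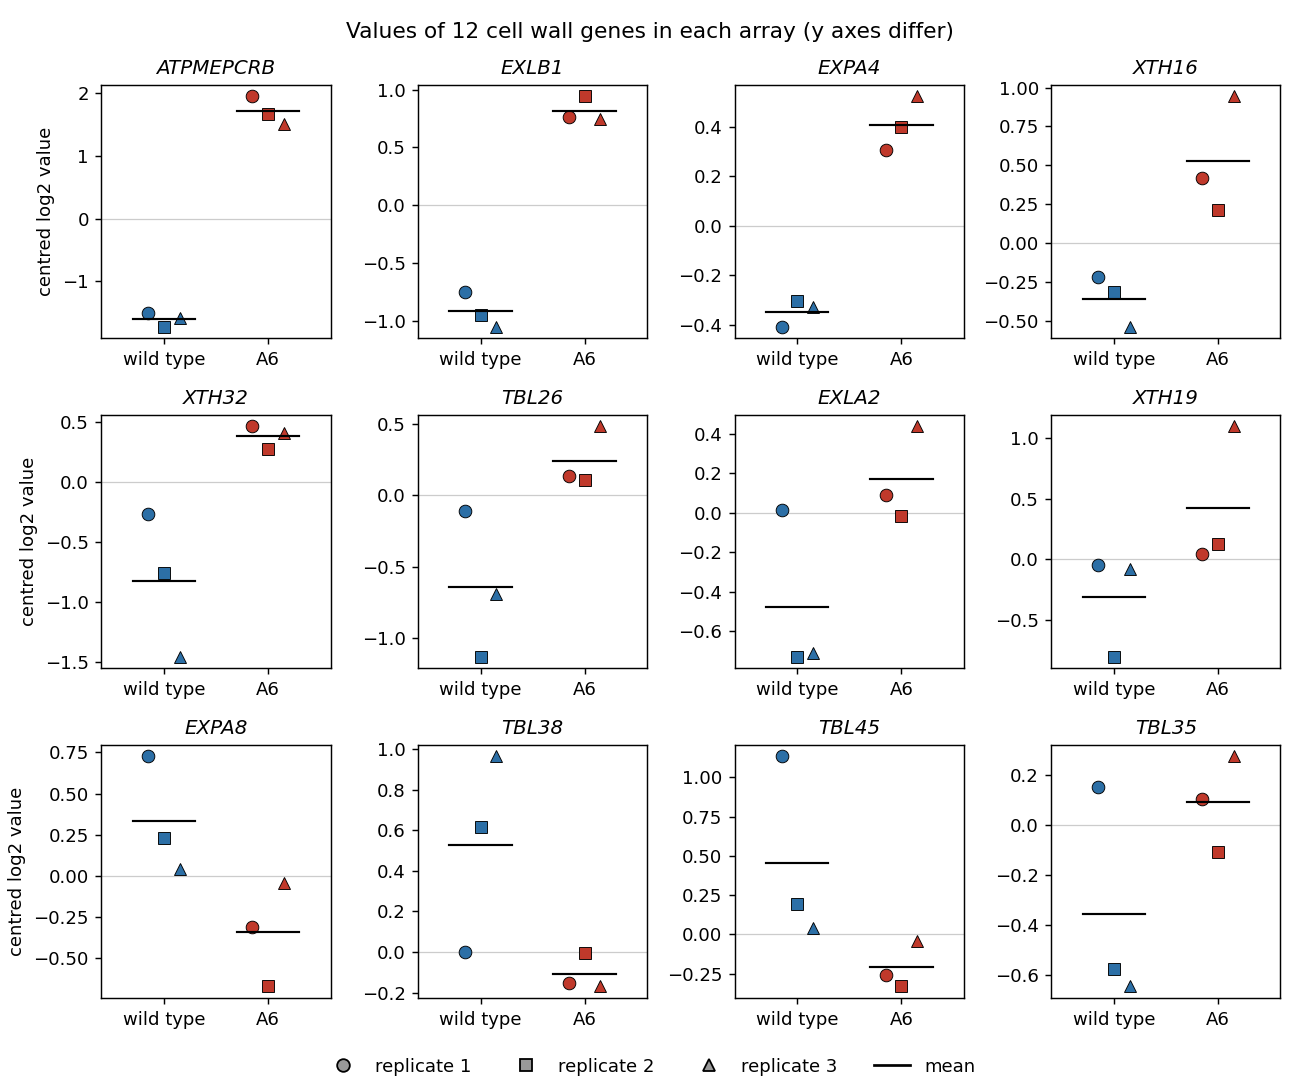
Centred log2 value of 12 genes in each array, with wild type in blue, A6 in red, replicates 1, 2 and 3 as circles, squares and triangles and the mean as a line; the y axes differ between panels. ATPMEPCRB, EXLB1 and EXPA4 show tight, separate lines. Wild-type array 1 lies above the other wild-type arrays in every panel but those of EXPA4 and TBL38.

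Of the 22 TBL genes 0 passed with limma, beside 8.65% of all genes. The A6 mean was the higher one for 12 and the lower one for 10, or 54.5% higher beside 44.3% of all genes. The class median was 0.011, and the intervals ran from -1.27 to 1.44. At an unadjusted p under 0.05 with limma 4 of the 22 were higher and 2 lower, where the shares among all genes were 10.1% and 11.9%.

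TBL26 (AT4G01080), of the subgroup known to acetylate mannan, had the largest difference of the class. Its values were 0.14, 0.11 and 0.48 in A6 and -0.11, -1.13 and -0.69 in wild type. The lines did not overlap, and wild-type array 1 was 0.22 units below the lowest A6 array while wild-type arrays 2 and 3 were 1.24 and 0.8001 below it. The difference was 0.89 (SE 0.24, adjusted p = 0.0587), a 1.85-fold higher level that missed the threshold. It passed in 5 of the 14 other fits. These included the fits without wild-type array 1 (1.15, adjusted p = 0.00441), with array weights (1.06, adjusted p = 0.00386) and with the hybridisation control block (0.89, adjusted p = 0.008). TBL26 also passed under the RNA quality covariate (1.79, adjusted p = 0.0446). Leaving out any other single array gave no pass, with adjusted p-values up to 0.163. Without wild-type array 2 the difference was 0.64 (adjusted p = 0.141). TBL25, of the same mannan subgroup, had a difference near 0, in the range given for the rest of the class.

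TBL35 (AT5G01620) and TBL32 (AT3G11030) are known xylan acetyltransferase genes. TBL35 had values of 0.11, -0.11 and 0.28 in A6 and 0.15, -0.58 and -0.65 in wild type, so wild-type array 1 lay within the A6 range. Its difference was 0.45 (SE 0.22, adjusted p = 0.256), and without wild-type array 1 it was 0.703 (adjusted p = 0.0114), whereas without wild-type array 3 it was 0.303 (adjusted p = 0.534). TBL32, which is measured by a probe set marked as able to match more than one transcript, had 0.42 (SE 0.15, adjusted p = 0.13). TBL34 and TBL28, also known from xylan acetylation, were in the range of the rest.

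TBL41 (0.37, SE 0.12, adjusted p = 0.0965) and TBL37 (0.35, SE 0.13, adjusted p = 0.145) had all A6 values above all wild-type values. With array weights TBL37 had an adjusted p of 0.0259 and TBL32 of 0.04, and with the hybridisation control block TBL32 had 0.0263. Under the RNA quality covariate TBL32 differed by only 0.026 (adjusted p = 0.969) and TBL41 by 0.23 (adjusted p = 0.641), and TBL37 differed by 0.23 without wild-type array 2 (adjusted p = 0.334).

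TBL38 and TBL45 had the lowest differences of the class. TBL38 (AT1G29050) had values of -0.15, -0.0025 and -0.17 in A6 and 0.0025, 0.61 and 0.96 in wild type. The lines did not overlap, but wild-type array 1 was only 0.0051 units above the highest A6 array. The other wild-type arrays stood further above. The difference was -0.63 (SE 0.22, adjusted p = 0.12), -0.897 without wild-type array 1 (adjusted p = 0.00451) and -0.63 with the hybridisation control block (adjusted p = 0.0426). Without wild-type array 3, its highest array, it was -0.42 (adjusted p = 0.276).

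TBL45 (AT2G30010) showed the opposite arrangement of arrays. Its values were -0.25, -0.33 and -0.039 in A6 and 1.13, 0.19 and 0.039 in wild type. The lines did not overlap, with 0.078 units between the nearest arrays. Wild-type array 1 was the high array here, so that the difference of -0.66 (SE 0.26, adjusted p = 0.17) was -0.32 without it (adjusted p = 0.129). The hybridisation control block gave an adjusted p of 0.0321, and the RNA quality covariate turned the sign to 0.31 (adjusted p = 0.687). The other 15 TBL genes (TBL15, TBL16, TBL18, TBL19, TBL20, TBL21, TBL23, TBL25, TBL28, TBL30, TBL34, TBL36, TBL39, TBL42 and TBL43) had differences from -0.197 to 0.16. Of these, TBL19 and TBL21 are direct neighbours on chromosome 5, and TBL28 and TBL30 on chromosome 2, and neither pair held a gene with an unadjusted p under 0.05.

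Wild-type array 1 was the highest of the 6 arrays for 17 of the 50 genes, or 34%, against 26.6% of all genes. These were 9 of the 22 TBL genes, 8 of the 18 expansins and 0 of the 9 XTH genes. Without this array 8 of the 50 genes rose and 1 fell, beside 6.03% and 7.73% of all genes. Leaving out A6 array 1 gave 3 rises, beside 1.73% of all genes, A6 array 2 gave 4 (2.17%) and A6 array 3 gave 4 (3.28%). Leaving out wild-type array 2 gave 3 rises (2.45%) and wild-type array 3 gave 4 (2.62%). In these 5 fits 0 members fell, where the shares of all genes were 1.14%, 1.56%, 2.59%, 1.68% and 1.99%. Array weights gave 10 rises and 2 falls, beside 8.23% and 10.3%. With the hybridisation control block 8 of the 50 rose and 3 fell, beside 6.69% and 6.8% of all genes. The pair with high hybridisation controls was A6 array 3 and wild-type array 1. Between these arrays the differences were 3.02 for ATPMEPCRB, 1.49 for EXLB1, 1.16 for XTH16, 0.93 for EXPA4 and 0.67 for XTH32. Their sign was fixed in advance, because all A6 values of these 5 genes lay above all wild-type values. Without this pair of arrays 8 of the 50 rose and 2 fell, beside 6.28% and 7.26% of all genes, and these 5 genes were among them with 3.47, 1.85, 0.74, 0.67 and 1.47 in the same order.

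Under the RNA quality covariate 3 of the 50 genes rose, namely ATPMEPCRB, EXLB1 and TBL26, and 0 fell, beside 0.614% and 0.577% of all genes. The covariate takes a degree of freedom from 6 arrays and separates the lines by itself, so a call that is lost with it cannot be told apart from lost precision. ATPMEPCRB had 3.57 and EXLB1 had 1.99 in this fit.

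**Figure D3:**
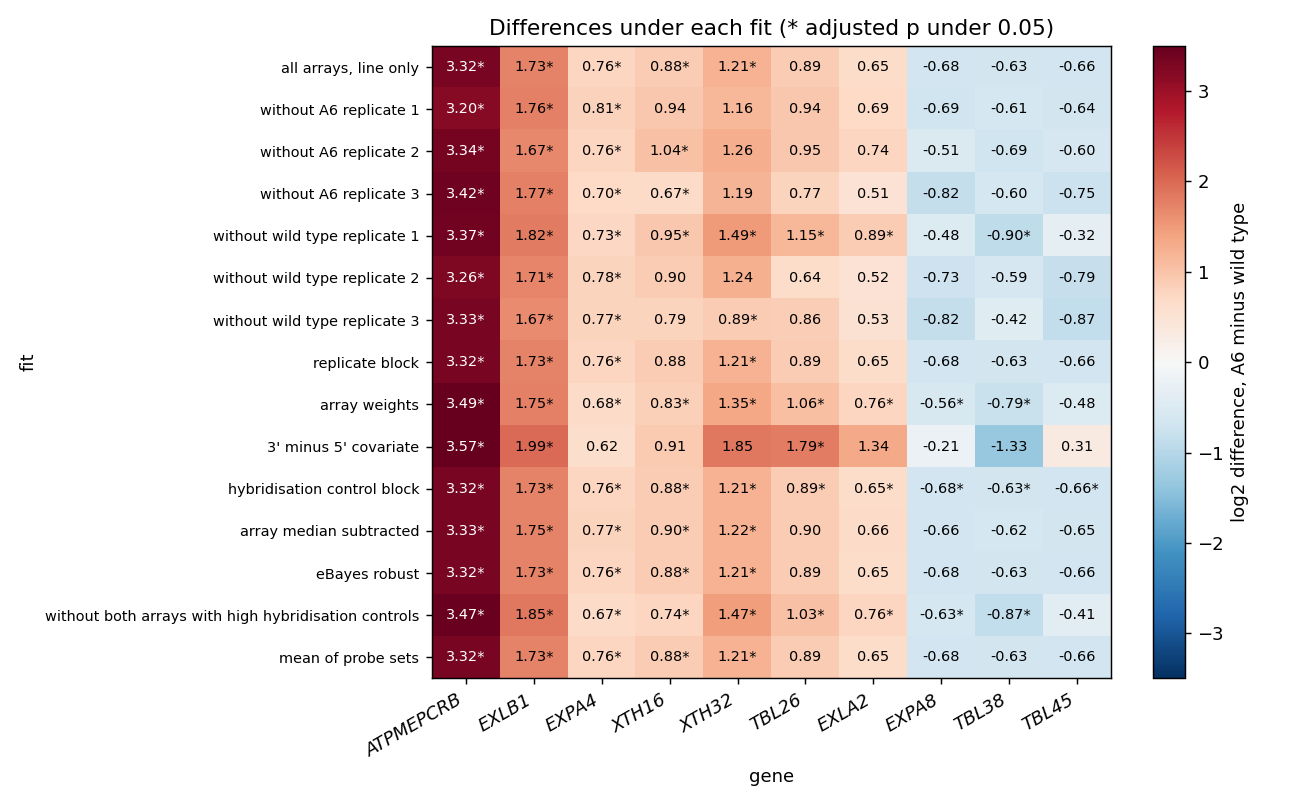
Log2 difference (A6 minus wild type) of 10 genes under each fit, as colour and number, with an asterisk where the adjusted p was under 0.05. The columns of ATPMEPCRB and EXLB1 carry an asterisk under every fit shown. Beside the fit of all arrays with line only, EXPA4 carries one under 13 of 14 fits, and XTH16 and XTH32 under 9 each. The columns of TBL26, EXLA2, EXPA8, TBL38 and TBL45 also carry one only under some fits.

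Related cell wall genes were taken from lists of loci of which few were measured under a name that fitted the list. Of the 17 measured genes 1 rose and 0 fell, or 5.88% beside 8.65% of all genes, and the median difference was 0.062 beside -0.027 over all genes. The pectin methylesterase gene PME61 (PME35, AT3G59010), which is known for its part in stem strength, was the risen gene. Its values were 0.41, 0.47 and 0.38 in A6 and -0.44, -0.38 and -0.41 in wild type, and the arrays of each line lay within 0.083 units of each other. The difference was 0.83 (SE 0.0904, adjusted p = 0.00206), or 1.78-fold, and 0.79 (adjusted p = 0.0836) under the RNA quality covariate. Of the 4 listed pectin methylesterase genes measured beside ATPMEPCRB, 3 did not pass.

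Of 5 xyloglucan backbone synthase genes of the CSLC group 0 passed with limma, and 0 had an unadjusted p under 0.05. CSLC04, the main one known from vegetative tissue, had 0.38 (SE 0.25, adjusted p = 0.417) and 0.698 without wild-type array 1 (adjusted p = 0.00879) but 0.16 without wild-type array 3 (adjusted p = 0.778). CSLC6 had -0.18 (adjusted p = 0.354). The polygalacturonase gene ADPG1 had 0.17, the cellulose orientation gene COB -0.059, and the xylan genes IRX15-L and IRX15 had 0.075 and -0.056. EXGT-A3 (XTH27), an XTH gene under another symbol, had 0.028. TRICHOME BIREFRINGENCE itself (AT5G06700), which is known from cellulose deposition in trichomes and is listed under its locus code, had -0.39 (SE 0.16, adjusted p = 0.189), with an adjusted p of 0.0253 under the hybridisation control block, and -0.24 without wild-type array 1, its highest array (adjusted p = 0.307). TBL40 (AT2G31110) had 0.052. The lists of acetylation genes outside the TBL family and of growth hormone targets are not analysed here.

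Among markers of leaf cell types and other organs that could bear on these genes, few were measured under a name. None of 3 mesophyll genes, 3 root genes, 1 phloem gene and 1 meristem gene passed with limma. The root genes were PYK10 and the members EXPA7 and EXPA18, so this list is not independent of the results above. The summed mesophyll values were 0.17 to 0.34 in A6 and -1.04 to -0.295 in wild type. Of 5 genes listed for guard cells and stomata, STOMAGEN rose by 1.47 and CHX20 fell by 1.201, while MUTE, FMA and SPCH did not pass. The summed values of this list were -0.41 to 0.45 in A6 and -1.04 to 1.02 in wild type. They add these opposite changes and give no measure of guard cells. Of 2 epidermal genes SIM fell by 0.55, while TRY was 0.40 higher in A6 without passing (adjusted p = 0.0515 with limma). The summed epidermal values, -0.27 to 0.18 in A6 and 0.035 to 0.13 in wild type, add differences of opposite sign. The part of these markers in the results on wall genes was not tested. In bulk leaf, fewer cells of a type and less RNA per cell cannot be told apart.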

How the data were processed

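Affymetrix ATH1 arrays had been summarised by the authors with RMA (named in the submitters' processing notes, no version given), and the deposited values were taken as log2. Neither the log base nor a centring step is given in the sources used here, but each probe set's median across arrays was 0 to within 5e-07. Brightness is lost by centring, so dim probe sets could not be filtered, background correction could not be varied, and the number of arrays limits the precision.

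Here, line was the only term of a two-sided limma fit (version 3.58.1, lmFit and eBayes, R 4.3.3) to 22746 probe sets, with 64 controls left out. Names came from the platform annotation (13513 probe sets with 1 gene, 503 with several), and all 50 members matched RefSeq TAIR10.1. For 147 genes with several probe sets 1 was used. Values are given for members that passed or differed by at least 0.5, for the 2 largest differences of a class, and for related genes that passed or were largest in their list. XTH18, XTH29, TBL32, TBL35, TBL37 and TBL41 were added after their values were seen. Members and lists were chosen with earlier results of these data known. The fit was tested on simulated data.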

Additional observations from a re-analysis of the deposited data

How the results depend on the processing

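The fit was repeated without each array, with the other planned settings, and, in a setting chosen after seeing the data, without both arrays with high hybridisation controls. Without each array in turn, the probe sets that passed numbered 766 to 3484 (2222 with all arrays), the members 3 to 9 (5), their rises 3 to 8 and their falls 0 to 1. Array weights gave 4691 probe sets and 12 members (10 rises, 2 falls), the 3' minus 5' covariate 290 and 3 (3 rises), the hybridisation control block 3478 and 11 (8 and 3), and leaving out both arrays with high controls 3465 and 10 (8 and 2). The cause was not tested. Same-numbered arrays deviated from their group means with correlations of -0.13, 0.18 and -0.16. With 3 arrays per line these values cannot settle whether the numbers mark pairs. With the replicate block 1526 probe sets passed, and XTH16 had an adjusted p of 0.0573. Of 700 member differences under the alternatives 49 changed sign. EXLA1 and EXLA3, given above as a range, were among the genes that changed sign and ran up to 0.16 and 0.31. Of the members and related genes named by value, signs changed for TBL45 (0.31), COB (0.22), EXGT-A3 (-0.25), IRX15 (0.25), IRX15-L (-0.018) and AT5G06700 (0.011) with the covariate, COB (0.032) and IRX15 (0.012) with array weights, and EXGT-A3 (-0.12), IRX15 (0.066) and AT2G31110 (-0.0026) without both arrays with high controls; without single arrays COB ran from -0.14 to 0.043, EXGT-A3 from -0.081 to 0.15, IRX15 from -0.14 to 0.051, XTH18 from -0.014 to 0.11 and AT2G31110 from -0.0048 to 0.16.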
